A study of Rattus norvegicus with 6 samples.

Results

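The miR-29 family guide strands are the rat microRNAs (miRNAs) rno-miR-29a, rno-miR-29b and rno-miR-29c, written below without the species prefix, which share 1 seed, the stretch of bases that selects their target messages. Members were taken by name: every miRNA spot that the array annotation assigns to one of these 3 names. No measured value entered that rule, but the family was chosen with earlier results of these data known. They are 3 of the 677 rat miRNAs on the array, read by 6 of its 1644 miRNA probes, and each probe is printed at 10 spots per array. In rat plasma taken 24 h after a liver toxicant, miR-29a was higher on all 3 arrays than on any control array, the signal of miR-29c was likewise higher on all 3 but, by the share of spots well above background, was detected on 2 of them and on no control array, and miR-29b was detected on none of the 6.

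The series measured plasma miRNAs of 6 male Wistar rats on 1-colour Agilent rat miRNA arrays, 1 array per animal. The vehicle group was 3 rats given 0.9% (v/v) saline, and the test group was 3 rats given thioacetamide at 100 mg/kg dissolved in the same saline, both by the intraperitoneal route, with plasma taken at 24 h. Starting body weights were 393 to 428 g, and no age is used here. Thioacetamide is oxidised in hepatocytes to reactive products that injure the liver, and it is used in rodents both for acute liver damage and, with repeated dosing, for fibrosis. This is 1 dose and 1 time, plasma holds RNA set free by many tissues, and the arrays held no measure of scarring, collagen or of the tissue an RNA came from.

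A miRNA guide strand is the strand of a short hairpin that is loaded into an Argonaute protein, where its seed pairs with sites in messenger RNAs and lowers their translation and stability. The miR-29 family is best known for repressing messages of the extracellular matrix, among them collagens, elastin and fibrillin. In liver it is found in hepatocytes and in hepatic stellate cells, the collagen-making cells of scarring, and it is called antifibrotic because its level falls in fibrotic liver and stellate cells as collagen messages rise.

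The mature sequences, from the RefSeq miRNA table (build GRCr8), are shown because the members are told apart by very few bases. All 3 members matched an entry of that table. Capitals mark the seed, bases 2 to 8 counted from the 5′ end.
miR-29a: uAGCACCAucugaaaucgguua
miR-29b: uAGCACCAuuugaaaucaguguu
miR-29c: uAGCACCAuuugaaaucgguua

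The seed was the same in the 3 members and was found in these 3 only among the 693 distinct mature names of the table. miR-29a and miR-29c, both 22 bases long, differed by 1 base, C10U from miR-29a to miR-29c. miR-29b, 23 bases long, differed from miR-29c by 3 substitutions, G18A, U21G and A22U, and by 1 added base at the 3′ end. From miR-29a it differed by C10U as well, 4 substitutions in all.

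The array probes are the complement of these strands, so the same bases decide what each probe can separate. The probe sequences of the array files are shown with capitals at the bases that face positions 10, 18, 21 and 22 of the mature strand.
miR-29a A_26_P00001240: TAacCgatttcaGatggtg
miR-29a A_26_P00001241: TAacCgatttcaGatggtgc
miR-29b A_26_P00001237: aACacTgatttcaAatggtgc
miR-29b A_26_P00002574: aACacTgatttcaAatggtgct
miR-29c A_26_P00001244: TAacCgatttcaAatggtgct
miR-29c A_26_P00001245: TAacCgatttcaAatggtgcta

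Each probe was the exact complement of 1 mature rat miRNA of the table. The miR-29a probes had 1 mismatch with miR-29c, and the miR-29c probes had 1 mismatch with miR-29a. The miR-29b probes had 4 mismatches with miR-29a and 3 with miR-29c, and faced 1 base that neither of the others has. Whether miR-29a RNA added to the miR-29c signal, or the reverse, was not tested.

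The array files place the probes on build rn4. The miR-29a probe A_26_P00001241 lies at chr4:58107816-58107834 on the minus strand, and the miR-29b probe A_26_P00002574 lies near it at chr4:58108190-58108211, also on the minus strand. A second copy of the miR-29b site is listed at chr13:110967572-110967593 on the plus strand, near the miR-29c probe A_26_P00001245 at chr13:110968102-110968122. In the files the listed spans of the miR-29a and miR-29c probes are 1 base shorter than the probes themselves. RefSeq names the precursor genes Mir29a and Mir29b1 on chromosome 4 and Mir29b2 and Mir29c on chromosome 13, so miR-29b is the one member made from 2 precursors, each beside the precursor of another member. The probes lie in the mature part of these noncoding precursors.

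The arrays differed in how bright a spot had to be before the scanner software called it well above background. The lowest signal so called was 18.7, 138 and 155 on vehicle 1 to 3 and 437, 41.2 and 47.0 on thioacetamide 1 to 3, on each array 5.00 to 5.01 times its additive error. All 6 arrays were on 1 slide. The 3 arrays with the high limits (vehicle 2, vehicle 3 and thioacetamide 1) were in slide columns 1 and 2, and the other 3 in columns 3 and 4, so both sides held both groups. Each vehicle array detected 16 to 62 miRNAs and each thioacetamide array 22 to 83. Of the 677 miRNAs, 578 were detected on none, 8 on all 6, and the 59 detected on at least 3 arrays were tested. Body weight changed by 3 to 4 g after vehicle and by -20 to -18 g after thioacetamide.

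miR-29a, which is made beside miR-29b on chromosome 4, had unscaled signals (the sum of its 2 probe means, in linear intensity units) of 167, 175 and 133 on vehicle 1 to 3 and of 1582, 846 and 1135 on thioacetamide 1 to 3. Every thioacetamide array was far above every vehicle array, and the groups did not overlap. The means were 158 ± 22.3 and 1188 ± 371 (SD, n = 3 each), a ratio of 7.50 with an exact two-sided permutation p = 0.1, the smallest that 3 against 3 allows.

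The arrays were then scaled to a common 75th percentile of the 12 probes that every array detected, which gave miR-29a signals of 179, 225 and 212 for vehicle and 696, 1092 and 909 for thioacetamide. Thioacetamide 1, highest before scaling, was lowest of its group after it, and its scale factor of 2.27 was the highest of the 6. The groups were still apart. On the log2 scale the levels were 7.68 ± 0.17 and 9.79 ± 0.33 (SD, n = 3 each). miR-29a therefore rose 4.32-fold, a log2 change of 2.11 ± 0.35 (SE; 95% confidence interval 1.26 to 2.96, limma adjusted p = 0.00760 over the 59 tested miRNAs).

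Of the 59 tested miRNAs, 9 (15.3%) rose by this rule and 1 (1.69%) fell. Groups that did not overlap were seen for 22 (37.3%), 16 of them higher (27.1%). At an unadjusted p under 0.05, 16 were higher (27.1%). miR-29a, the one member among the 59, was sixth by p and eleventh by change, and the median change of all tested was 0.45. It entered the test because all 3 thioacetamide arrays detected it, while 1 vehicle array did. That is the group where it was high, so its limma adjusted p, wherever this filter was used, is not independent of the filter.

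**Figure D1:**
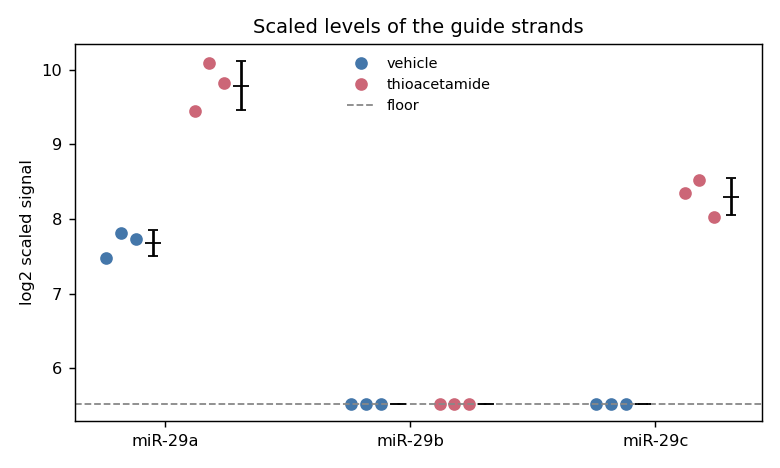
Scaled log2 signal (y axis) of each guide strand on each array, vehicle in blue and thioacetamide in red, with the mean and SD (n = 3) beside each group; the dashed line is the floor set before taking log2. miR-29a lies at 7.48 to 7.82 for vehicle and 9.44 to 10.09 for thioacetamide, miR-29b lies on the floor in all 6, and miR-29c lies on the floor for vehicle and at 8.03 to 8.53 for thioacetamide.

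Both miR-29a probes gave higher signals after thioacetamide. Probe A_26_P00001240 averaged 38.0, 47.8 and 34.2 on vehicle 1 to 3 and 373, 171 and 235 on thioacetamide 1 to 3, and probe A_26_P00001241 averaged 129, 127 and 98.8 against 1210, 675 and 900. For each probe the lowest thioacetamide array was above the highest vehicle array, also after scaling. The scaled log2 changes were 1.88 ± 0.22 and 2.18 ± 0.22 (SE), that is 3.68-fold and 4.54-fold of the measured signals (exact two-sided permutation p = 0.1 for each). Each probe was called above background on 1 of the 3 vehicle arrays. A_26_P00001240 was also not called on thioacetamide 1, where its mean of 373 lay under that array's limit of 437. These folds therefore rest in part on signals not called above background.

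The detection calls of miR-29a did not follow its signal. On vehicle 1, where the limit was 18.7, all 10 spots of both probes were called above background, while vehicle 2 and vehicle 3 had like signals and limits of 138 and 155. There 4 of 10 spots of A_26_P00001241 were called on vehicle 2 and 0 of 10 on vehicle 3, and none of A_26_P00001240 on either. Feature Extraction's gene call named miR-29a detected on all 6 arrays. Its gene signal kept the same proportion to the summed means of both probes on vehicle 1 and every thioacetamide array. On vehicle 2 and vehicle 3 it kept that proportion to A_26_P00001241 alone. The 6 negative control probes, which have no target, averaged 5.16 to 29.5 on vehicle 1, 27.9 to 114 on vehicle 2 and 44.0 to 113 on vehicle 3. Both miR-29a probes were above that range on vehicle 1, A_26_P00001241 was just above it on vehicle 2, and neither was on vehicle 3. On the thioacetamide arrays those control probes averaged 116 to 286, 2.09 to 114 and 2.03 to 196, and A_26_P00001241 was above the highest of them on each. The part of this background in the fold was not tested.

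**Figure D2:**
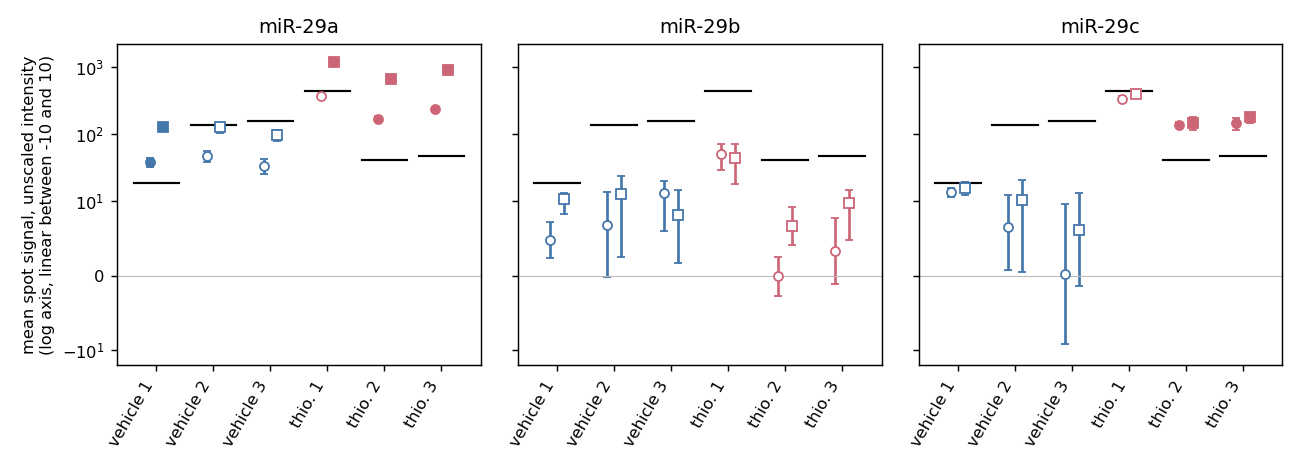
Mean spot signal of each probe on each array in unscaled intensity (y axis logarithmic above 10 and below -10, linear between), with the SD over its spots; circles and squares are the 2 probes of a member in the order listed in the text, filled where over 50% of spots were called well above background, blue for vehicle and red for thioacetamide. The black bar is each array's lowest signal called above background, from 18.7 on vehicle 1 to 437 on thioacetamide 1; the miR-29c probes of thioacetamide 1 lie below it although they are the brightest of that panel.

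The change of miR-29a was positive in each of 26 alternative settings, from 1.36 to 2.99, and relative to the median change of all tested miRNAs it was 1.31 to 2.47. It passed the threshold in 20 of them. The call was among others lost without vehicle 3 (1.37, limma adjusted p = 0.0744) and with scaling to the 75th percentile of all miRNA probes (2.33, adjusted p = 0.272), and without scaling the change was 2.87. With slide side as a block, under which 12 of 59 miRNAs rose (20.3%), it was 2.07 (limma adjusted p = 0.00984). Within slide columns 1 and 2, which hold 2 vehicle arrays and 1 thioacetamide array, it was 1.67. Within columns 3 and 4, with 1 vehicle and 2 thioacetamide arrays, it was 2.48, and these are given as values, since 1 group has a single array on each side.

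**Figure D3:**
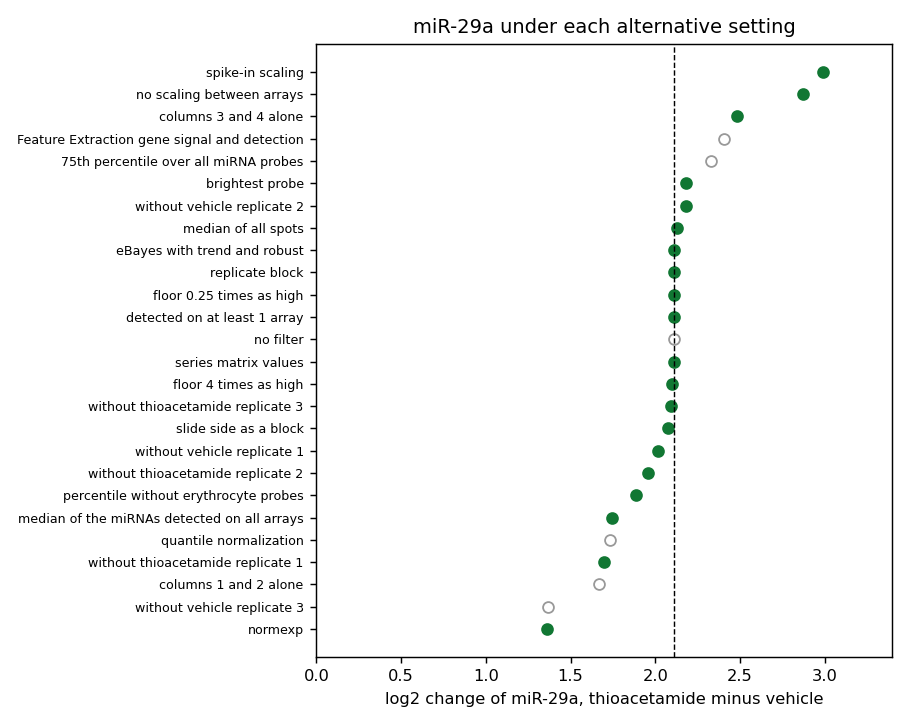
Log2 change of miR-29a, thioacetamide minus vehicle (x axis), under each alternative processing setting, 1 per line; filled points had a limma adjusted p under 0.05, open points did not, and the dashed line marks 2.11. All 26 lie above 0, from 1.36 with normexp background correction to 2.99 with spike-in scaling, and 6 are open.

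miR-29c, the member 1 base away from miR-29a, had unscaled signals of 29.6, 17.2 and 6.37 on vehicle 1 to 3 and of 741, 286 and 326 on thioacetamide 1 to 3. The vehicle arrays were all low and the thioacetamide arrays all high, with no overlap. Scaled signals were 31.7, 22.1 and 10.2 against 326, 369 and 261, with means of 21.3 ± 10.8 and 319 ± 54.6 (SD, n = 3 each; exact two-sided permutation p = 0.1).

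miR-29c was detected on 2 arrays, thioacetamide 2 and thioacetamide 3, so it did not enter the test of 59. The array with its highest unscaled signal, thioacetamide 1, was not among them: its probe means of 337 and 404 fell under that array's limit of 437. By this rule no vehicle array detected it, though Feature Extraction's gene call did on vehicle 1, and its vehicle signals were all under the floor of 46.1. The log2 change of 2.78 (6.85-fold) computed from the floor therefore depends on the floor, and raising the floor 4 times gave 0.78, lowering it to 0.25 of its value 3.97. Its change was positive in all 26 alternatives, but wherever the 3 vehicle values lay on the floor it could not have been negative.

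Bounds that do not use the floor took the lowest scaled probe signal called above background on each vehicle array. The thioacetamide mean was set against the mean of these 3 limits, both taken on the log2 scale. Over the 2 thioacetamide arrays that called them, a choice made after seeing the data, probe A_26_P00001244 was at least 1.49-fold higher and probe A_26_P00001245 at least 1.72-fold higher. With thioacetamide 1, which called neither, the same ratios were 1.51 and 1.76. The scaled limits were 20.9 on vehicle 1, 175.2 on vehicle 2 and 244.8 on vehicle 3. For both probes the thioacetamide mean was above the first limit only. The bounds therefore rest on vehicle 1, and against vehicle 2 or vehicle 3 alone the limits show no rise. The measured probe means were 13.9, 6.52 and 0.274 against 337, 138 and 146 for A_26_P00001244. For A_26_P00001245 they were 15.8, 10.6 and 6.09 against 404, 149 and 180. On both probes the lowest thioacetamide array was above the highest vehicle array, and on thioacetamide 3 both lay under the highest negative control probe (196).

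Other detection rules brought miR-29c into the test. Feature Extraction's gene call named miR-29c detected on vehicle 1 and on all 3 thioacetamide arrays. With that signal and call, 87 miRNAs were tested, of which 10 (11.5%) rose, and miR-29c changed by 3.87 ± 0.66 (SE; 95% confidence interval 2.31 to 5.43, limma adjusted p = 0.00960). On the same values miR-29a changed by 2.41 ± 0.63 (95% confidence interval 0.91 to 3.91, limma adjusted p = 0.0540). This change compares unlike sums. The signal of miR-29a held both probes on vehicle 1 and the thioacetamide arrays. It held A_26_P00001241 alone on vehicle 2 and vehicle 3, which lowers the vehicle level. With all 677 miRNAs in the fit, 2 (0.295%) rose and miR-29c was one of them (limma adjusted p = 0.0270). In that fit its 3 vehicle values are the floor itself and have no spread, so its p says little, and with Feature Extraction's signal vehicle 2 and vehicle 3 were likewise at that setting's floor.

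miR-29b, the member made from 2 precursors, was detected on no array, and Feature Extraction's gene call likewise named it on none. Its unscaled signals were 15.7, 19.8 and 21.4 on vehicle 1 to 3 and 94.5, 6.63 and 13.1 on thioacetamide 1 to 3. Thioacetamide 1 was the highest and the other two thioacetamide arrays the lowest, so the groups overlapped. After scaling the means were 25.5 ± 8.73 and 20.2 ± 18.5 (SD, n = 3 each; exact two-sided permutation p = 0.7), all under the floor. The probe changes were -1.33 ± 1.44 for A_26_P00001237 and -0.32 ± 0.45 for A_26_P00002574 (SE; exact two-sided permutation p = 0.5 and 0.6), and the second was 0.44 without scaling. The first was -2.59 without thioacetamide 1 and -0.35 without thioacetamide 2. A change of miR-29b was not detectable at these signals, which is no measure of its absence.

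The passenger strands, the other arms of the same hairpins, are read by probes of their own. None of miR-29a*, miR-29b-1*, miR-29b-2* and miR-29c* was detected on any array. Over all arrays 0 of 120 spots of miR-29a* were above background, 1 of 119 of miR-29b-1*, 0 of 120 of miR-29b-2* and 0 of 113 of miR-29c*.

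Measures that need no scaling between arrays were also taken for miR-29a. Its share of the signal summed over the 59 tested miRNAs was 0.904%, 0.830% and 0.966% on vehicle 1 to 3 and 2.27%, 1.63% and 1.26% on thioacetamide 1 to 3. Each thioacetamide array was above each vehicle array. The means were 0.900 ± 0.0682% and 1.72 ± 0.508% (SD, n = 3 each; exact two-sided permutation p = 0.1).

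The other measure was the log2 ratio of miR-29a to another miRNA of the same array, for 7 of them. Against miR-16 and miR-451, which are abundant in red blood cells, the ratio was higher after thioacetamide by 3.24 and 3.43, and against miR-92a by 1.26. Against miR-122, the hepatocyte miRNA, it was lower (difference -6.84), as it was against miR-22 (-3.68), miR-192 (-2.12) and miR-21 (-1.11). These 4 were each detected on 1 of the 3 vehicle arrays, and without vehicle 3, where miR-122 was under the floor, the difference against miR-122 was -5.75. In all 7 ratios the groups did not overlap, and each had an exact two-sided permutation p = 0.1, also 0.1 after Benjamini-Hochberg adjustment over the 7. A ratio of this kind shows unequal change of its terms, not which of them changed.

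**Figure D4:**
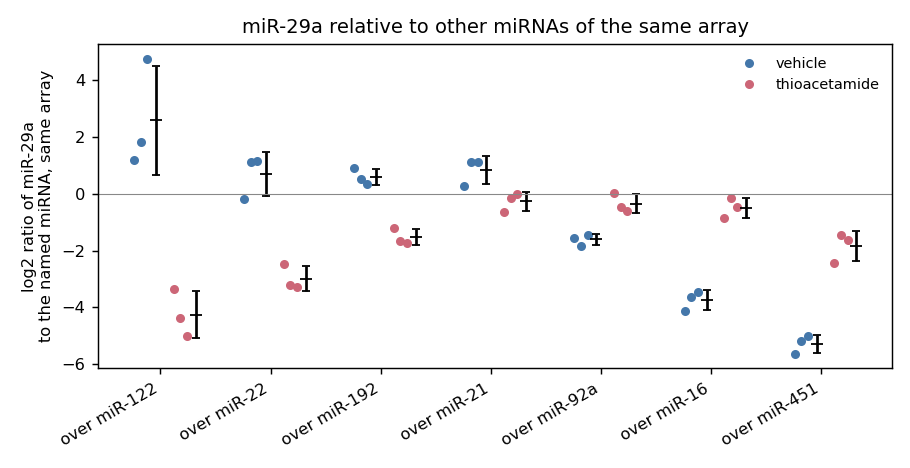
Log2 ratio of miR-29a to each named miRNA of the same array (y axis), vehicle in blue and thioacetamide in red, with the mean and SD (n = 3). The mean ratio was -3.74 and -0.50 over miR-16, and 0.59 and -1.53 over miR-192, for vehicle and thioacetamide. Its height compares signals of different probes and is no measure of abundance.

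The 5 tested miRNAs whose scaled log2 levels followed miR-29a most closely over the 6 arrays were miR-192 (Pearson r = 0.998), miR-30a (0.993), miR-122 (0.986), miR-30d (0.984) and miR-22 (0.977). miR-192 and miR-122 are enriched in liver, miR-192 in gut and kidney as well. miR-192 had log2 levels of 6.57, 7.29 and 7.39 on vehicle 1 to 3 and 10.63, 11.76 and 11.55 on thioacetamide 1 to 3, with the lowest array of each group the same as for miR-29a. Over the other 58 tested miRNAs the median r was 0.41 and 9 were above 0.9. These points share 6 arrays, their scale factors and the difference between the groups. With the group means taken out, r was 0.949 for miR-192, 0.981 for miR-30d, 0.821 for miR-30a, 0.598 for miR-122 and 0.379 for miR-22. The median of this r over the 58 was 0.613, so miR-122 and miR-22 were below it, and 11 of the 58 were at or above miR-30a. The red blood cell markers tested below ranged from -0.710 for miR-451 to 0.931 for miR-92a, so a high r was not confined to liver miRNAs.

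In the fibrosis list, miRNAs that act on or change with scarring, 19 of 20 names were on the array, 7 were detected on any array and 4 were tested. Of these 4, miR-21, which rises in injured tissue, rose by 3.22 (limma adjusted p = 0.00107), miR-30a, a miRNA of many epithelia, by 2.75 (adjusted p = 0.00289) and miR-29a by 2.11 on the log2 scale, and 0 fell. The fourth, miR-30c, had a change of 0.57 (limma adjusted p = 0.523). The median change of the 4, miR-29a among them, was 2.43 against 0.45 for all tested miRNAs, of which 15.3% rose and 1.69% fell. miR-21, miR-30a and miR-29a were each detected on 3 thioacetamide arrays and 1 vehicle array. They entered the test only through the group where they were high, so these values are no test of the list. The stellate cell markers miR-199a-3p, miR-199a-5p, miR-214, miR-143 and miR-145 were detected on no array, and their summed scaled signal was 49.5 to 140 for vehicle and 23.5 to 133 for thioacetamide.

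Markers of other cells also differed between the groups. In the hepatocyte list, 4 of the 5 tested markers (miR-122, miR-122*, miR-192 and miR-22) rose and 0 fell, against 15.3% and 1.69% of all tested (median change 4.23). The other, miR-193, changed by 1.59 (limma adjusted p = 0.103). All 5 were detected on 3 thioacetamide arrays and at most 1 vehicle array. They entered the test only through the group where they were high, so the count is no test of the list. The summed scaled signal of the list was 404 to 559 for vehicle and 13244 to 42141 for thioacetamide, and miR-194 was detected on no array. For red blood cells, 1 of 7 tested markers, miR-451, fell and 0 rose, against the same shares (median -0.81), the summed signal was 10673 to 13736 against 6313 to 6596, and miR-144 was undetected. No miRNA was called lower without scaling, with spike-in scaling or with the percentile of all miRNA probes. The red cell miRNAs miR-16, miR-25, miR-451 and miR-92a are among the 8 miRNAs whose probes set the scale factors. With probes of the red cell list left out of the scaling the change of miR-29a was 1.89. That scaling rests on let-7d*, miR-1224, miR-19b and miR-328a. Levels of let-7d* and miR-328a were highest on vehicle 2, vehicle 3 and thioacetamide 1, the arrays of slide columns 1 and 2. The log2 change was 2.44 for miR-1224 and 0.45 for miR-19b. The value of 1.89 is thus no reference free of slide side or group.

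For leukocytes 0 of 3 tested markers rose or fell, where 15.3% of all tested rose and 1.69% fell (median -0.48), the summed signal was 393 to 636 against 329 to 523, and miR-142-3p, miR-142-5p and miR-146a were undetected. For platelets and endothelium 0 of 3 did (median 1.91), the summed signal was 47.5 to 320 against 211 to 1025, and miR-126 and miR-126* were undetected. The 4 muscle markers, miR-1 among them, were detected on no array. The part of any of these cells in the change of miR-29a was not tested, and release from more cells and release of more RNA per cell cannot be told apart in plasma.

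**Figure D5:**
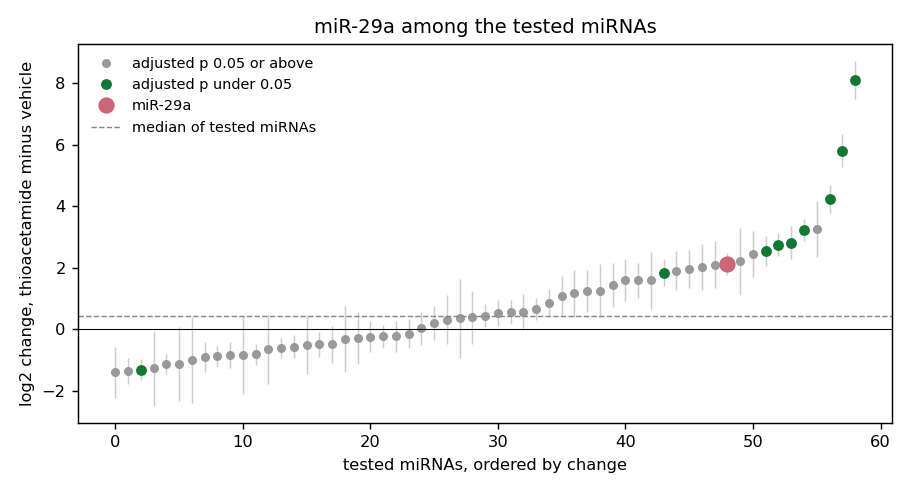
Log2 change with its SE (y axis) of the 59 tested miRNAs, ordered by change (x axis); green points had a limma adjusted p under 0.05, the red point is miR-29a, and the dashed line is the median change of 0.45. miR-29a, at 2.11, is eleventh from the top.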

How the data were processed

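The authors deposited intensity: linear spot signals after background subtraction, neither logged nor scaled between arrays. The submitters' processing notes name Agilent Feature Extraction 10.7.3.1, and the file headers name build rn4. The deposited value table equals them to within 0.005. Arrays were placed in groups by sample title. Spots without an outlier mark were averaged per probe, and probe means were summed per miRNA. A probe counted as detected where over 50% of those spots were well above background, a miRNA where at least 1 probe did. After scaling, sums under 46.1 (the 5th percentile of detected sums) were set to that floor before log2. For single probes the floor was 1. The fit used limma 3.58.1 (R 4.3.3), its functions lmFit and eBayes with treatment as the term (4 residual and 2.41 prior degrees of freedom), with Benjamini-Hochberg adjustment over the 59 tested miRNAs and a threshold of 0.05. The fit and its adjustment alone were tested on simulated log2 values. The steps before them, from spots and detection to scaling and floor, were not simulated. No spot was saturated. Body weights in the labels differ from array to array, so arrays were taken as separate animals and p-values measure the spread between them. The 3 arrays a group and the number of spots above background, 212 to 1344 per array, limit the precision.

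The members, the lists of cell markers and fibrosis miRNAs, and the alternatives were chosen with earlier results of these data known. Named are the 3 members, their passenger strands, the 7 miRNAs of the ratios, the 5 most like miR-29a, and tested or undetected members of the lists. The 8 miRNAs that set the scale factors are named as well. Alternatives covered scaling, background correction, probe and spot summaries, floor, filter, slide side, replicate block, leaving out each animal, and the variance moderation.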

Additional observations from a re-analysis of the deposited data

How the results depend on the processing

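For miR-29a the call was lost with the percentile over all miRNA probes (2.33, limma adjusted p = 0.272), quantile normalization (1.73, 0.0959), Feature Extraction's gene signal and call (2.41, 0.0540), no filter (2.11, 0.0527, with 677 miRNAs adjusted over) and columns 1 and 2 alone (1.67, 0.0831, with 3 arrays, 1 of them thioacetamide and assumed to vary like the others). Feature Extraction's gene signal of miR-29a left out probe A_26_P00001240 on vehicle 2 and vehicle 3, so that value compares unlike sums. Leaving out 1 animal gave 1.37 to 2.18, the lowest without vehicle 3. With only the miRNAs detected on all arrays it was not tested. The median change of all tested miRNAs moved from 0.45 to 0.97 without scaling, 1.15 with spike-ins, 0.03 with scaling to the median of the 8 miRNAs that every array detected (the 8-miRNA median), 0.06 with quantile normalization, 0.21 without red cell probes and -0.02 with normexp.

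For miR-29c the change was 3.23 unscaled, 1.70 with the all-probe percentile, 2.32 with the 8-miRNA median, 3.55 with spike-ins, 1.26 with quantile normalization, 2.42 without red cell probes, 1.00 with normexp, 2.33 from the brightest probe, 3.87 with Feature Extraction's gene signal, 0.78 and 3.97 with the higher and lower floor, and 2.78 both without a filter and with detection on at least 1 array. In these last 2 fits miR-29c enters with all vehicle values at the floor, with no spread, so that its passing the threshold is no support. Leaving out 1 animal gave 2.10 to 3.01. For miR-29b, 0 at the floor, it was 0.37 without scaling, 0.42 with spike-ins, -0.40 with normexp and -0.47 with the lower floor, and 0 to 0 leaving out 1 animal. Its probe A_26_P00002574 turned from -0.32 to 0.44 without scaling.

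The counts of higher and lower miRNAs, 9 and 1, were 22 and 0 unscaled, 3 and 0 with the all-probe percentile, 22 and 0 with spike-ins, 5 and 2 with quantile normalization, 14 and 3 from the brightest probe, 2 and 0 without a filter, 14 and 5 with detection on at least 1 array, 0 and 2 with detection on all arrays, 0 and 0 in columns 1 and 2, and 33 and 4 in columns 3 and 4. With normexp 5 were higher. Lower were 4 with the 8-miRNA median, without red cell probes and with the higher floor, 2 with the median of spots, with slide side as a block and with a trended robust fit, and 0 with Feature Extraction's gene signal and with the lower floor. Leaving out 1 animal gave 6 to 18 higher, the most without thioacetamide 1, and 0 to 7 lower. Unless given above, the cause was not tested.

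Same-numbered animals did not deviate together (correlations -0.70, -0.31 and -0.66). Each same-numbered pair lay on opposite sides of the slide, so these values cannot show whether the numbers pair the animals. With the replicate number as a block miR-29a changed by 2.11 (limma adjusted p = 0.0336), 10 miRNAs were higher and 0 lower, and for the share and the 7 ratios the smallest exact p was 0.25.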

Other observations

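The passenger strand miR-29c* had unscaled signals of 12.6, 143 and 142 on vehicle 1 to 3 and 395, 15.0 and 32.0 on thioacetamide 1 to 3, none above background. Its 3 high arrays were those in slide columns 1 and 2, in both groups, whereas the 3 high arrays of the guide strand miR-29c were the thioacetamide arrays.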
